A study of Mus musculus with 157 samples.

Results

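Toll-like receptors (Tlr) are the membrane receptors with which cells of the blood sense molecules of bacteria and viruses. Described here are 8 receptor genes, Tlr1, Tlr2, Tlr4, Tlr6, Tlr7, Tlr8, Tlr9 and Tlr13, with Cd14, which encodes a coreceptor that hands lipopolysaccharide to Tlr4, and Myd88, which encodes the adaptor that these receptors signal through. With earlier results of these data known, the 10 genes were chosen by symbol from 36102 genes in the expression tables. They come from mouse blood cell populations in which RNA and its N6-methyladenosine (m6A) marks were profiled. Input RNA and RNA precipitated with an anti-m6A antibody (IP) were sequenced from untreated wild-type cells of 16 types, with 2 libraries of each kind per type. The same was done for 7 types labelled Mettl3 -/-, which lack the m6A methyltransferase by their label, and for their labelled wild types, with 2 libraries per genotype, type and kind. LT.HSC libraries labelled Igf2bp2 -/- and wild type numbered 2 each, and Igf2bp2 encodes a protein that binds m6A. New RNA was followed by 4-thiouridine (4sU) labelling for 3 h in 6 types, and its decay over 7 chase times after 24 h of labelling in LT.HSC and MkP. The labels used here name no Cre line or age and do not say that 2 libraries of a group came from separate animals, so the spread behind each p-value may be technical.

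The cell types carry their usual abbreviations: long- and short-term haematopoietic stem cells (LT.HSC, ST.HSC), multipotent and lymphoid-primed multipotent progenitors (MPP, LMPP), common lymphoid and common myeloid progenitors (CLP, CMP), granulocyte monocyte progenitors (GMP), megakaryocyte erythroid progenitors (MEP), megakaryocyte progenitors (MkP) and dendritic cells (DC). Tlr1, Tlr2, Tlr4 and Tlr6 sit at the cell surface and recognise bacterial lipoproteins and lipopolysaccharide, with Tlr2 pairing with Tlr1 or Tlr6. Tlr7, Tlr8, Tlr9 and Tlr13 sit in endosomes and recognise nucleic acids. Ligand binding recruits Myd88 and Irak kinases, and the signal ends in NF-kB and in cytokines such as Tnf and Il1b. All of the 10 genes are protein-coding in the RefSeq annotation of GRCm38.p6. Tlr1 (chromosome 5, 64924680 to 64933600) and Tlr6 (chromosome 5, 64953092 to 64970942) are neighbours, as are Tlr8 (chromosome X, 167241123 to 167264329) and Tlr7 (chromosome X, 167303380 to 167330574).

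A RefSeq promoter window of GRCm38.p6 was given for 7 of the 10 genes, and in 4 of its 9 windows the 250 bases before the start lay outside the annotated gene. Only these 4 windows, of Tlr8, Tlr9, Tlr13 and Myd88, are shown. Each reads 5′ to 3′ on the gene's strand and ends at the base before the start. Capitals mark matches, on either strand, to the letters GAGGAA (PU.1), TTGCNNAA (C/EBP), TGANTCA (AP-1) and the NF-kB and IRF motifs. The windows lie at chrX:167264330-167264579 (minus strand) for Tlr8, chr9:106222348-106222597 (plus strand) for Tlr9, chrX:106143025-106143274 (plus strand) for Tlr13 and chr9:119340019-119340268 (minus strand) for Myd88.
Tlr8: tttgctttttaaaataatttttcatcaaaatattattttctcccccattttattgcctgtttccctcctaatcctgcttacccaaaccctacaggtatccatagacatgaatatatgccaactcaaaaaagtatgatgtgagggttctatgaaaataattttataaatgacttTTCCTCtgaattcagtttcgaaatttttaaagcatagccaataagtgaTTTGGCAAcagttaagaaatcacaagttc
Tlr9: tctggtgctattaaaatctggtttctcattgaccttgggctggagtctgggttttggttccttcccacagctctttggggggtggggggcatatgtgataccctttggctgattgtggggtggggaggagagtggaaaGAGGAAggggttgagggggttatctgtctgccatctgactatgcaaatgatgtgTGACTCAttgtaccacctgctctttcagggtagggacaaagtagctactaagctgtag
Tlr13: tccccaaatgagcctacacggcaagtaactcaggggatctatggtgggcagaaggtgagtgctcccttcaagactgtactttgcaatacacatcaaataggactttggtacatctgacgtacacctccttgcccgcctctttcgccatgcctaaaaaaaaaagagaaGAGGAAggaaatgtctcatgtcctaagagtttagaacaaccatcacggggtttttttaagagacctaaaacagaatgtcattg
Myd88: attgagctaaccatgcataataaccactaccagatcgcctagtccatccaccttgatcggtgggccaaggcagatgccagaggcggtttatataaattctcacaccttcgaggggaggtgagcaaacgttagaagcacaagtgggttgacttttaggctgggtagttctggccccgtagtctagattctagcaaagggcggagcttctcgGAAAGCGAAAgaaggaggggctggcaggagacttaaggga
The letters GAGGAA stood in 3 of these 4 windows, those of Tlr8, Tlr9 and Tlr13, and in 23.3% of all 32851 RefSeq windows of the same length. The Tlr8 window also held a C/EBP match, found in 9.56% of all windows, and the Tlr9 window an AP-1 match, found in 6.75%. The Myd88 window held 1 IRF match, found in 2.98% of all windows. None of the 4 held the NF-kB motif, found in 1.21% of all windows. Among the windows that overlapped the annotated gene, 1 of Tlr1 held GAGGAA and 1 of Tlr6 held 1 C/EBP and 2 IRF matches. The other windows of Tlr1 and Tlr6 and that of Tlr2 held no match. These are matches of letters within 250 bases and say nothing of binding. No window was given for Tlr4, Tlr7 and Cd14.

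The depth and the scale of the input libraries bear on every level below. The 32 atlas input libraries held 8.23 to 21.5 M reads. Their deposited values are reads divided by a size factor, and in the libraries labelled Monocyte 1 read was worth 7.97 and 11.6 deposited units, against 1.25 and 1.45 in Neutrophil and 0.718 and 0.715 in DC. In these Monocyte libraries 9 neutrophil granule genes summed to 259000 and 254000 CPM (reads scaled to the library total), against 108000 and 111000 in the Neutrophil libraries. A list of 8 monocyte genes was higher there too, at 143000 and 156000 CPM against 71600 and 72100. The first list goes against the label and the second goes with it. In the Monocyte libraries 10 genes took 52.8% and 54.1% of the reads. CD8 libraries held 30900 and 17800 CPM of the same neutrophil genes, while CD4 libraries held 2900 and 4610. In bulk RNA, fewer cells of a type and less RNA per cell cannot be told apart. Levels are therefore given as deposited values and, where the scale matters, also as CPM. No transcript lengths were at hand, so levels are compared between cell types and not between genes.

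**Figure D1:**
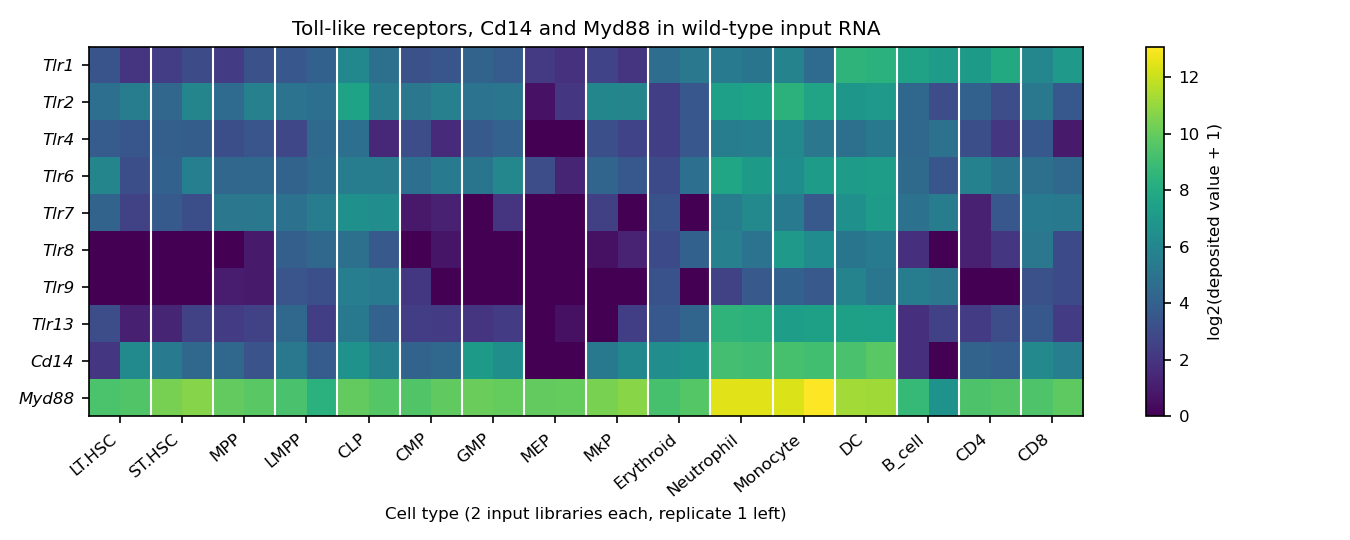
Deposited input values of the 10 genes as log2(value + 1), with 1 column per library and 2 libraries per cell type. Colours are to be read along a row, since rows are not scaled to gene length. Mature myeloid types carry the brightest cells in most rows, and the MEP columns are dark for all genes but Myd88.

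All 10 genes differed between the 16 types (limma F test, Benjamini-Hochberg adjusted p from 1.06e-09 for Tlr1 to 0.000416 for Tlr4), as did 92.8% of all 17165 genes tested, so that passing this test sets them apart little. The order of the levels was coarse. Of the 15 neighbouring pairs of types in each gene's order, the 2 libraries of 1 type overlapped those of the next in 11 (Tlr1, Tlr2, Tlr4, Tlr7 and Myd88), 12 (Tlr9 and Cd14) or 13 pairs (Tlr6, Tlr8 and Tlr13).

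Among the surface receptors, Tlr1 was highest in DC and then in lymphocytes. Its deposited values were 365 and 324 in DC, 136 and 242 in CD4, 180 and 142 in B_cell and 66.2 and 132 in CD8. They fell below 70 in every other type, down to 3.72 and 2.63 in MEP. DC stood clear of CD4, CD4 overlapped B_cell, and CLP, at 68.2 and 26.9, overlapped CD8.

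Tlr2, the shared partner of the lipoprotein receptors, was highest in Monocyte (335 and 196), Neutrophil (167 and 188) and DC (118 and 129). CLP libraries disagreed, at 193 and 44.8. They also held a dendritic cell list of 10 genes at 15200 and 11700 CPM and a monocyte list of 8 genes at 25200 and 8810, against 2350 and 3610 and 1460 and 780 in MPP, and the part of such cells in the CLP levels given here was not tested. Stem and progenitor types lay lower and overlapped one another: 26.7 and 45.0 in LT.HSC, 19.1 and 61.2 in ST.HSC, 34.9 and 50.9 in CMP and 30.2 and 34.0 in GMP. MkP held 63.3 and 61.2, above GMP, while MEP held 0.531 and 3.15, from 1 and 6 reads. MkP libraries also held the 9 neutrophil genes at 1840 and 4260 CPM, against 44.3 and 44.6 in GMP. Their monocyte list was at 1420 and 2600, against 4140 and 3270 in GMP, and the part of such cells in the MkP level was not tested. In CPM the order changed: Tlr2 was 11.3 and 12.8 in DC, 8.32 and 8.94 in Neutrophil, and 4.02 and 1.73 in Monocyte, which then ranked 9th of 16.

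Tlr4, the lipopolysaccharide receptor, was scarce everywhere, with at most 52 reads in a library. Its values were 71.7 and 34.7 in Monocyte, 44.9 and 46.4 in Neutrophil, 27.3 and 37.2 in DC, and 19.5 and 27.9 in B_cell. The Monocyte values rest on 9 and 3 reads. In CPM DC came first (2.62 and 3.68), then Neutrophil (2.24 and 2.20), and Monocyte ranked 10th of 16 (0.862 and 0.306). LT.HSC held 12.9 and 10.3 and ST.HSC 14.5 and 13.3, and neither MEP library had a read. Tlr6 was highest in Neutrophil (202 and 139), DC (144 and 154) and Monocyte (79.7 and 150), and these 3 types overlapped in turn. In CPM they stood apart, with DC at 13.8 and 15.3, Neutrophil at 10.1 and 6.60 and Monocyte 13th of 16 at 0.958 and 1.33. Its LT.HSC libraries disagreed, with 60.9 against 7.84, so no order among stem cells can be read from it.

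The coreceptor gene Cd14 had its highest values in DC (624 and 847), Monocyte (605 and 554) and Neutrophil (576 and 528). In CPM it was 60 and 83.9 in DC, 28.7 and 25 in Neutrophil, and 7.28 and 4.90 in Monocyte, which ranked 4th after CLP. On the deposited scale GMP followed with 137 and 89.1 and overlapped Erythroid (84.2 and 105). LT.HSC libraries were far apart at 3.23 and 71.8. B_cell had 1 read in a single library, and both MEP libraries were at 0, which at their depth allows up to 1.59 and 1.58 deposited units (3 reads, counting error only).

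Among the endosomal receptors, Tlr7, which senses single-stranded RNA, was highest in DC (93.3 and 145), followed by CLP (93.2 and 84.3) and Neutrophil (46.1 and 69.6). LMPP (28.3 and 44.4) and B_cell (29.2 and 43.1) overlapped. Both also overlapped MPP (34.8 and 36.6) and CD8 (39.7 and 37.5), which did not overlap each other. CMP, GMP and MEP held at most 3 reads per library. The gene was thus read in MPP, LMPP and CLP and hardly at all in CMP, GMP and MEP.

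Tlr8 was highest in Monocyte (127 and 80.9, from 16 and 7 reads), Neutrophil (49.9 and 30.4) and DC (33.0 and 41.4). In CPM DC led with 3.18 and 4.11, Neutrophil had 2.48 and 1.44, and Monocyte, at 1.53 and 0.714, ranked 6th. In CD8 it was 35.0 and 6.56, and the library with the higher value also held the higher sum of neutrophil genes, whose part in it was not tested. No read was found in 4 types, LT.HSC, ST.HSC, GMP and MEP. Tlr9, the receptor of unmethylated CpG DNA, was highest in DC (56.7 and 33.6), CLP (47.2 and 38.6) and B_cell (43.8 and 35.5), and these overlapped. It had no read in 6 types: LT.HSC, ST.HSC, GMP, MEP, MkP and CD4.

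Tlr13, which senses bacterial ribosomal RNA, was highest in Neutrophil, at 365 and 333. DC (172 and 166) and Monocyte (151 and 173) followed and overlapped. In CPM Neutrophil (18.2 and 15.8) overlapped DC (16.5 and 16.4), and Monocyte was 1.82 and 1.53. On the deposited scale CLP came next with 38.1 and 16.1, and in the other 12 types the mean was at most 14.8 deposited units. Myd88 was found in every library, from 104 in a B_cell library to 8540 in a Monocyte library. It was 5340 and 8540 in Monocyte, 5590 and 5600 in Neutrophil, 2470 and 2390 in DC, 1320 and 1640 in ST.HSC, 1080 and 998 in GMP, 657 and 732 in LT.HSC, and 431 and 104 in B_cell. In CPM Neutrophil led with 279 and 266, DC had 238 and 237, ST.HSC 153 and 182, and Monocyte only 64.2 and 75.4.

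The genes most like each of the 10 were sought over the 16 type means. Pearson's r of log2(value + 1), among 10363 genes with a mean of at least 50, was highest for Tlr8 with Klra2 (0.963) and Clec4a3 (0.96), for Tlr13 with Rasgrp4 (0.961) and Cd300ld (0.96), for Cd14 with Clec7a (0.943), for Myd88 with Slc16a3 (0.943), for Tlr2 with Tmem50b (0.932), and for Tlr9 with the immunoglobulin segments Ighv1-18 and Ighv9-3 (both 0.933). Tlr1 was most like Bcl2a1b (0.928), Tlr4 like Lrrk2 (0.923), Tlr6 like Tm6sf1 (0.908) and Tlr7 like Ralgps1 (0.897). Within the 10 genes, r was 0.877 between Tlr8 and Tlr13, 0.863 between Tlr6 and Tlr13, 0.834 between Tlr2 and Tlr6 and 0.801 between Tlr7 and Tlr9. It was 0.163 between Tlr1 and Tlr2 and -0.01 between Tlr1 and Myd88. These values are descriptions over 16 points that share libraries and their scaling.

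All 10 genes were higher in mature myeloid cells (Monocyte, Neutrophil and DC) than in the early types (LT.HSC, ST.HSC, MPP and LMPP) on the deposited scale, where 27.5% of all genes tested were higher and 30.9% lower. Cd14 lay between 528 and 847 in the 6 mature libraries and between 3.23 and 71.8 in the 8 early ones. Tlr13 lay between 151 and 365 against 1.24 to 20.5, and Tlr8 between 30.4 and 127 against 0 to 19.4. Both highest early values came from LMPP. Its libraries held the list of 9 neutrophil genes at 13100 and 4890 CPM and a list of 8 monocyte genes at 9430 and 4290. The part of such cells in the LMPP values was not tested. Myd88 lay between 2390 and 8540 against 320 to 1640. For 8 genes the ranges did not overlap, and for Tlr7 (11.6 to 145 against 4.95 to 44.4) and Tlr9 (4.99 to 56.7 against 0 to 9.76) they did. The share of all genes without overlap was not counted, so this count has no background beside it. The log2 differences were 5.25 (SE 0.44) for Tlr13, 4.91 (SE 0.45) for Cd14, 4.59 (SE 0.41) for Tlr8, 3.30 (SE 0.33) for Tlr1 and 2.49 (SE 0.22) for Myd88. They were 3.08 (SE 0.43) for Tlr9, 2.61 (SE 0.41) for Tlr6, 2.41 (SE 0.39) for Tlr2, 1.80 (SE 0.49) for Tlr4 and 1.45 (SE 0.52) for Tlr7. Tlr9 had 2 and 1 reads in Monocyte, 4 and 8 in Neutrophil and 79 and 47 in DC. Its Neutrophil values (4.99 and 11.6) overlapped those of LMPP (9.76 and 8.14). Tlr1 had 7 and 2 reads in Monocyte, 32 and 23 in Neutrophil and 509 and 454 in DC. Adjusted p from limma ran from 2.44e-10 for Tlr13 to 0.0198 for Tlr7. The median of the 10 differences was 2.85, beside -0.06 over all genes.

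The scale bore on this comparison. Counted as CPM, the ranges of all 10 genes overlapped, the median difference of all genes moved to -1.48 (1593 genes higher and 11848 lower), and 7 of the 10 genes were still higher by the test. Tlr2 and Tlr4 missed it and Tlr7 turned to -0.05 (limma adjusted p = 0.937). Cd14 stood at 3.29, Tlr13 at 3.75, Tlr8 at 3.52 and Myd88 at 0.82 on that scale. Without the Monocyte libraries all 10 were higher on the deposited scale, between 1.68 for Tlr4 and 5.45 for Tlr13. Of all 16925 genes in that fit 4452 were higher and 4478 lower. With both changes at once 9 were higher, where 2436 of all 16925 genes were higher and 7957 lower, and Tlr4 was 0.97 (limma adjusted p = 0.146). The call for Tlr7 was also lost, on the deposited scale, without the second DC, the second LT.HSC, the first Monocyte or the second Neutrophil library, where its difference lay between 1.16 and 1.35.

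**Figure D2:**
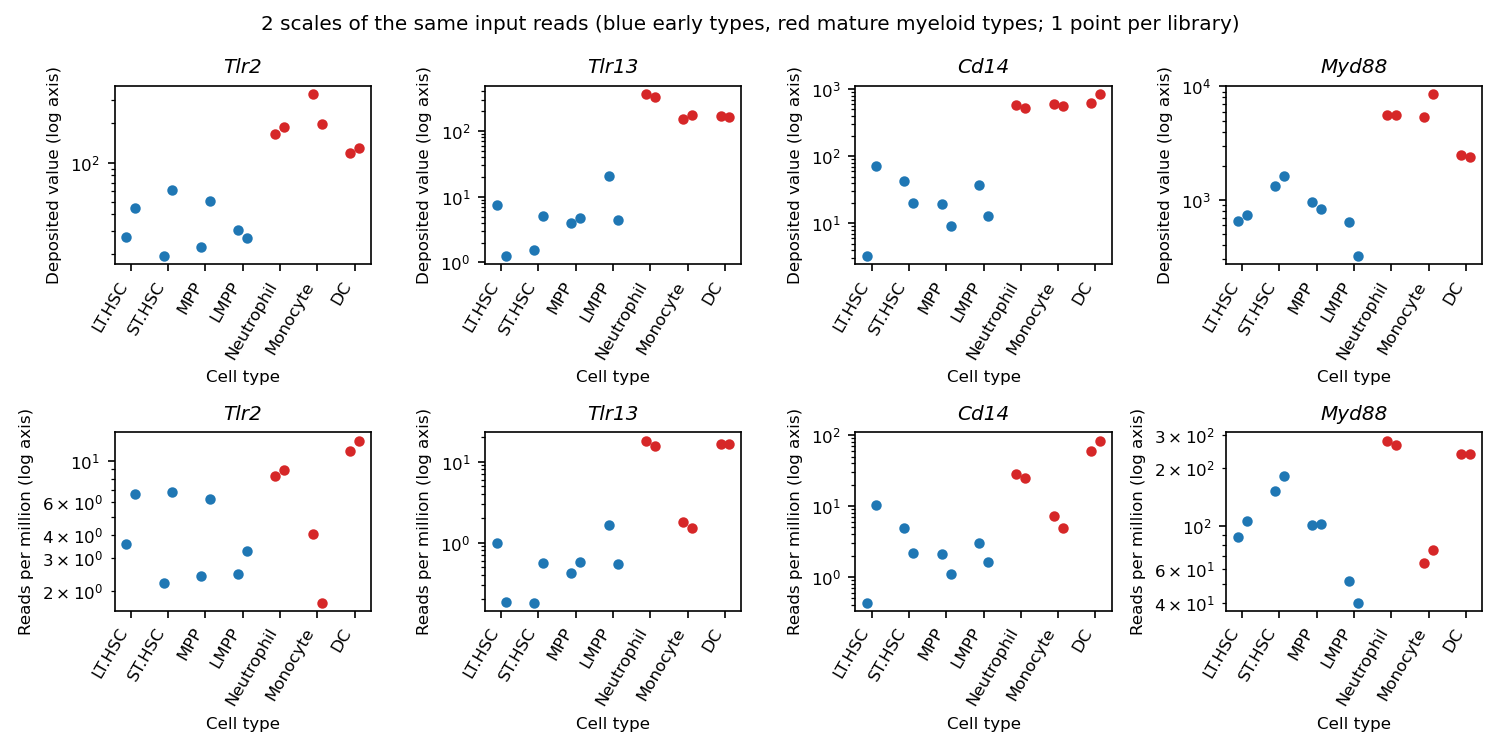
Tlr2, Tlr13, Cd14 and Myd88 in the early types (blue) and the mature myeloid types (red), as deposited values (top) and as CPM (bottom), both on log axes with 1 point per library. The Monocyte points lie beside Neutrophil in the top row and fall to 4.02 and 1.73 for Tlr2 and to 64.2 and 75.4 for Myd88 in the bottom row.

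From lists of 51 further pathway genes, 28 were higher and 7 lower in mature myeloid cells on the deposited scale, where 27.5% of all genes were higher and 30.9% lower, with a median difference of 0.74. In CPM 13 were higher and 25 lower, and the median was -0.59, so the balance of the lists turned with the scale. Coreceptors, transport and folding genes were higher in 7 of 8, among them Ly86 (5.47, SE 0.33), which encodes the partner protein of Cd180. Target cytokine genes were higher in 6 of 10 and lower in 1, with Il1b at 7.22 (SE 0.47) and the chemokine gene Cxcl2 at 5.38 (SE 0.45). Adaptors and kinases were split, 7 higher and 4 lower of 16, and Tab1, a subunit of the kinase complex below Traf6, was lower (-1.26, SE 0.27). Brakes were higher in 4 of 7 and lower in 1, Sigirr (-1.50, SE 0.17), an inhibitory receptor. Among 5 other receptors 2 were higher and 1 was lower, Tlr12 (-1.59, SE 0.38). The largest adjusted p among these named genes was 0.000836 in limma, for Tlr12, and all 6 kept their direction and their call in CPM. The split of the lists did not: in CPM adaptors and kinases were higher in 1 and lower in 13, brakes higher in 1 and lower in 3, coreceptors, transport and folding genes higher in 3 and lower in 2, and target genes higher in 5 and lower in 2.

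GMP, the progenitors of granulocytes and monocytes, differed from LT.HSC in 1 of the 10 genes, where 41.7% of all genes differed. Cd14 was 137 and 89.1 in GMP against 3.23 and 71.8 in LT.HSC, a log2 difference of 2.67 (SE 0.82, limma adjusted p = 0.0117). The groups did not overlap, but the size rested on the first LT.HSC library. Without that library the difference was 0.62, without the second LT.HSC library it was 4.72, and the call was also lost without the first GMP library, by edgeR on the recovered reads, and in CPM (1.38, limma adjusted p = 0.151). Tlr7 was 0 and 3.00 in GMP against 17.1 and 4.95 in LT.HSC, a difference of -2.37 with a limma adjusted p of 0.0507. In CPM Tlr7 was lower, by -3.28 (limma adjusted p = 0.004), on a scale on which the median of all genes was -1.60 (737 higher, 9593 lower). Of the 51 pathway genes 9 were higher and 9 lower in GMP on the deposited scale, and 4 and 29 in CPM. Ly86 (7.59, SE 0.62), Tnf (3.30, SE 0.69) and Slc15a4 (2.57, SE 0.38) were the highest, and Ccl4 (-5.78, SE 0.61), Il1b (-4.29, SE 0.87) and Irf7 (-3.82, SE 0.48) the lowest, all called on both scales.

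GMP and MEP are sister progenitors of the myeloid branch, and 5 of the 10 genes were higher in GMP. Of all 17165 genes 22.1% differed, with 2239 higher in GMP and 1555 lower. Cd14 had 91 and 89 reads in GMP and none in MEP, which makes it at least 71.3-fold higher against a floor of 3 reads per library. Tlr4 had 8 and 16 reads against none and was at least 8.87-fold higher. Their limma adjusted p were 4.84e-07 and 0.00193. Tlr2 was 30.2 and 34.0 against 0.531 and 3.15, a log2 difference of 3.71 (SE 0.72, limma adjusted p = 0.000303). Tlr6 was 33.2 and 64.1 against 7.44 and 1.58 (3.34, SE 0.77, limma adjusted p = 0.0018), and Tlr1 16.6 and 13 against 3.72 and 2.63 (1.93, SE 0.61, limma adjusted p = 0.023). The 5 genes did not overlap between the groups, a count for which no share over all genes was taken. All of them are surface receptors or the coreceptor, while Tlr7, Tlr8 and Tlr9 had 3 reads or fewer in every GMP and MEP library, and Tlr13 had 2 and 4 reads in GMP against 0 and 1 in MEP and did not pass. The Tlr1 call was lost when any of the 4 libraries was left out, and the Tlr6 call without the second MEP library. In CPM, where the median of all genes was -0.60 (1449 higher, 4198 lower), the Tlr1 call was lost and the other 4 stood. Of the 51 pathway genes 20 were higher and 4 lower in GMP on the deposited scale, and 12 and 11 in CPM. Unc93b1, which carries endosomal receptors to their compartment, was higher (6.08, SE 0.62), as were Lbp (7.76, SE 0.43), the lipopolysaccharide-binding protein, and Ly86 (6.98, SE 0.62). Lower in GMP were Cd36, a scavenger receptor (-5.51, SE 0.91), Irf7 (-3.36, SE 0.48) and Il1b (-2.82, SE 0.87, limma adjusted p = 0.0188), and these 6 were called on both scales.

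Neutrophil and Monocyte libraries did not differ by the test in any of the 10 genes on the deposited scale, where 21.3% of all genes did. None had an unadjusted p under 0.05 in limma, and edgeR called none. Cd14 differed by -0.07 and Myd88 by -0.27, Neutrophil minus Monocyte. With CPM 6 were higher in Neutrophil, with Cd14 at 2.15, Myd88 at 1.97, Tlr13 at 3.29, Tlr7 at 3.21, Tlr6 at 2.78 and Tlr1 at 2.04, beside a median of 1.81 over all genes (10256 higher, 212 lower). The direction for Cd14 and Myd88 thus depended on the scale, and the neutrophil genes in the libraries labelled Monocyte, given above, stand beside both. Of the 51 pathway genes 1, Tollip (1.76, SE 0.34), was higher in Neutrophil and 11 were lower, among them Il6 (-4.16, SE 0.95), Ccl4 (-2.82, SE 0.61) and Tlr3 (-2.29, SE 0.79), while in CPM 30 were higher and 0 lower.

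DC and B_cell are both antigen-presenting types, and 6 of the 10 genes were higher in DC, where 20.6% of all genes were higher and 15.9% lower. Cd14 had 869 and 1185 reads in DC and 1 and 0 in B_cell, a ratio of 592 (95% exact interval 106 to 23400, counting error only). The ratio was 45.3 (15.4 to 220) for Tlr13, with 3 reads in B_cell, and 30.0 (5.26 to 1200) for Tlr8, with 1. Their limma adjusted p were 1.86e-08, 2.33e-05 and 8.79e-05. Myd88 was 2470 and 2390 against 431 and 104, a log2 difference of 3.51 (SE 0.41, limma adjusted p = 4.11e-07). Tlr2 (3.23, SE 0.72, limma adjusted p = 0.00102) and Tlr6 (3.23, SE 0.77, limma adjusted p = 0.00183) were higher by like amounts. Tlr9, at 56.7 and 33.6 in DC and 43.8 and 35.5 in B_cell, overlapped, and Tlr4 and Tlr7 did not pass. In CPM 8 genes were higher in DC, with Tlr1 (2.12) and Tlr7 (2.69) added, beside a median of 0.98 over all genes (6774 higher, 890 lower). DC libraries also held a macrophage list of 8 genes at 1490 and 2120 CPM (15.8 and 18.1 in B_cell) and a monocyte list of 8 genes at 8770 and 10900 (269 and 274), and their part in these differences was not tested. Of the 51 pathway genes 21 were higher and 3 lower in DC, and 32 and 1 in CPM. Of the target cytokine genes, 9 of 10 were higher, with Il12b at 6.15 (SE 0.92) and Il1b at 5.22 (SE 0.87), and the receptor gene Tlr11 was at 6.88 (SE 0.77). Lower in DC were Nfkbia (-1.76, SE 0.32), Tbk1 (-1.59, SE 0.36) and Irf3 (-1.0, SE 0.26), of which the Tbk1 and Irf3 calls were lost in CPM, where Irf3 was at 0.02.

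B_cell and T cells (CD4 and CD8 together) differed in 5 genes, 2 higher in B_cell and 3 lower, where 15.1% and 16.5% of all genes were higher and lower. Tlr9 was 43.8 and 35.5 in B_cell, 0 and 0 in CD4 and 8.51 and 6.56 in CD8, a log2 difference of 3.80 (SE 0.69, limma adjusted p = 0.000131), with no overlap. Cd14 was lower by -4.06 (SE 0.71, limma adjusted p = 8.52e-05) and Myd88 by -1.82 (SE 0.36, limma adjusted p = 0.000279). Tlr4 was higher (2.16, limma adjusted p = 0.0362) and Tlr8 lower (-1.95, limma adjusted p = 0.026). Myd88 rested on the second B_cell library, at 104 against 431 in the first. Without it the difference was -0.80 (limma adjusted p = 0.0668). Without the CD8 libraries, which carried neutrophil genes, Tlr9 was 5.34, Cd14 -3.13 and Myd88 -1.75, all called, while the Tlr4 and Tlr8 calls were lost and Tlr7 was higher in B_cell (2.83, limma adjusted p = 0.0361). The Tlr4 call was also lost without either B_cell library, without the second CD4 or the second CD8 library, by edgeR, with no filter on low values and in CPM. The Tlr8 call was lost without the second B_cell, second CD4 or first CD8 library, by edgeR and with a pseudocount of 10. In CPM Tlr6 was lower too (-1.89), beside a median of -0.84 over all genes (1120 higher, 6839 lower). Of the 51 pathway genes 14 were higher and 15 lower in B_cell, and 6 and 21 in CPM. Cd180 (5.56, SE 0.42), Ly86 (4.57, SE 0.54) and Unc93b1 (3.83, SE 0.53) were the highest, and Cxcl2 (-3.94, SE 0.72), Ikbke (-3.77, SE 0.34) and Tnf (-3.35, SE 0.60) the lowest, all called on both scales.

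The mark m6A is placed on many messenger RNAs and is read by binding proteins that affect stability and translation. Its enrichment is given here as log2 IP minus log2 input, on CPM after TMM factors with 1 added. These TMM-scaled CPM are another scale than the CPM given so far: the 16 and 7 Tlr8 reads of the Monocyte inputs, 1.53 and 0.714 CPM, are 7.56 and 4.74 TMM-scaled CPM. IP and input are separate libraries and their scaling sets where 0 lies, so genes are ranked within a type. Of the 10 genes, 5 differed in enrichment between the 16 types, where 32.9% of all 16753 genes did: Tlr7 (limma adjusted p = 1.79e-05), Tlr8 (0.000358), Myd88 (0.000461), Tlr13 (0.0101) and Tlr6 (0.027). Types in which a gene has few input reads enter this test with values drawn toward 0 by the 1 added. The Tlr6 call was lost with the replicate block, with no filter on low values, with a pseudocount of 10 and without any of 4 libraries (the first input libraries of CD4, CD8 and LMPP and the second CD4 IP library), where its limma adjusted p rose to at most 0.1.

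Genes were ranked where their mean input reached 5 TMM-scaled CPM, which Tlr4 and Tlr9 did in no type. In DC, among 9504 such genes, Tlr7 stood at the 98.2nd percentile, Tlr13 at the 95.2nd and Tlr1 at the 69.4th. Tlr2 (57.3rd) and Tlr6 (54.2nd) were near the middle. Myd88 stood at the 2.4th and Cd14 at the 1.76th. In Neutrophil Tlr13 was at the 94.7th, Tlr2 at the 86th and Tlr6 at the 57.6th percentile, against the 10.2nd for Cd14 and the 3.17th for Myd88. In Monocyte Tlr13 was at the 99.2nd, from 19 and 15 input reads, Tlr8 at the 94.3rd, from 16 and 7, and Tlr6 at the 73.8th, from 10 and 13, while Cd14 was at the 10.7th and Myd88 at the 3.12th. The Tlr1 RNA was at the 98.9th percentile in CD8, the 95.7th in CD4 and the 92.1st in B_cell.

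By library, Tlr7 had IP minus input of 2.05 and 2.07 in DC and 1.86 and 2.37 in CLP. Tlr13 had 1.78 and 1.98 in Neutrophil, 2.74 and 2.69 in Monocyte and 1.39 and 1.94 in DC. Tlr1 had 2.85 and 3.04 in CD8 against 0.25 and 0.63 in DC. Tlr4 was above 0 in 24 of 32 pairs (-0.80 to 3.03) and Tlr9 in 12, with 10 below 0 (-0.70 to 2.01). Cd14 was never above 0 and reached -2.18 and -3.25 in DC, -1.64 and -0.92 in Neutrophil and -1.27 and -1.78 in Monocyte. Myd88 was below 0 in 30 of 32 pairs, down to -2.91 and -3.48 in Erythroid. The exceptions were the second LMPP pair, at 0.67 against -0.75 in the first, and the second B_cell pair, at 1.03 against -0.97. Myd88 was at the 2.33rd to 13.6th percentile in 12 of the other types and at the 0.775th in Erythroid, with CD8 at the 22.3rd, LMPP at the 47th and B_cell at the 48.3rd. In the Erythroid libraries 10 genes took 82.3% and 81.2% of the IP reads and 52.2% and 58.8% of the input reads.

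**Figure D3:**
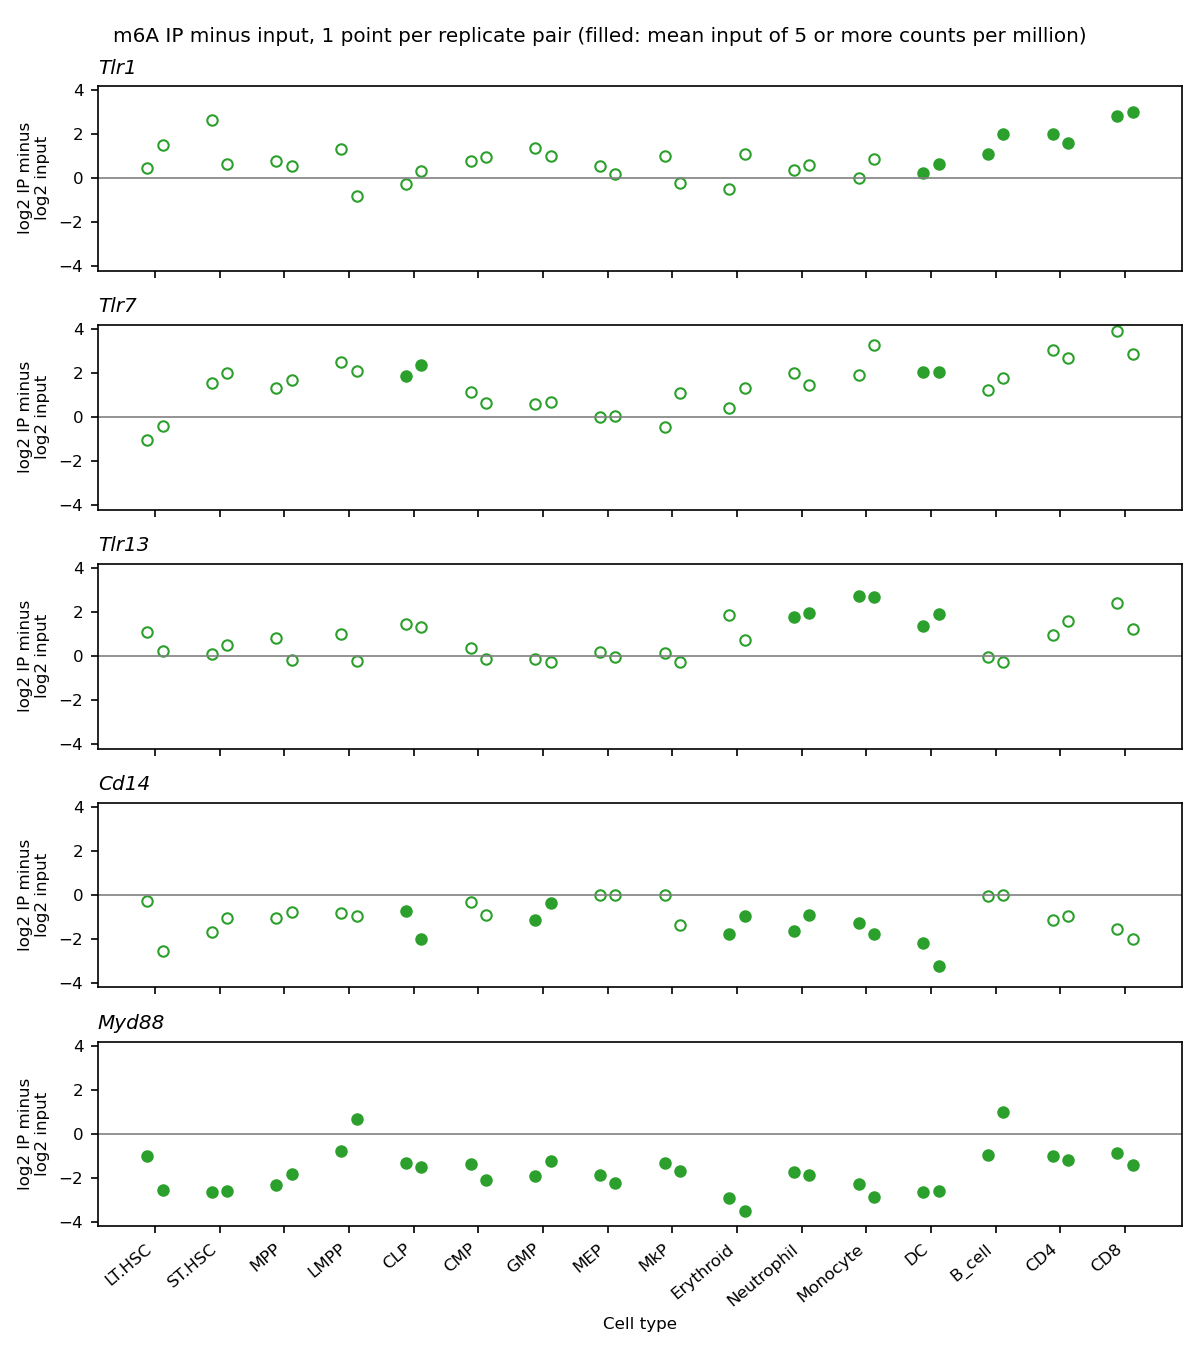
Log2 IP minus log2 input by cell type for 5 genes, with 1 point per replicate pair and filled points where mean input was at least 5 TMM-scaled CPM. Tlr1, Tlr7 and Tlr13 lie above 0 in the filled points, Cd14 lies at or below 0 throughout, and Myd88 lies below 0 in 30 of 32 pairs.

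Between mature myeloid and early types limma called 2 of the 10 genes in enrichment, Tlr8 and Tlr13, where 3.69% of all genes were higher and 3.31% lower, but the early inputs cannot carry that comparison. Tlr8 had no input read in LT.HSC and ST.HSC, at most 2 in MPP and 15 and 31 in LMPP, and Tlr13 had 3 to 21 in the 8 early libraries. At such levels the 1 added to both values draws the difference toward 0, so no difference in enrichment is read from these calls. The 6 mature pairs, as a description, lay at 1.39 to 2.99 for Tlr8 and 1.39 to 2.74 for Tlr13. The other 8 genes did not pass. Of the 51 other pathway genes 4 were called, of which Tlr5 and Il12b had under 2 deposited units in every early library and Irf7 (-1.33, SE 0.33) and Hsp90b1 (-0.76, SE 0.22) were lower.

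Between DC and B_cell, Myd88 had lower enrichment in DC (-2.64, SE 0.55, limma adjusted p = 0.00393), where 3.0% of all genes were lower and 2.13% higher. Cd14 was called too, but it had 1 input read in B_cell, where its pairs were at -0.04 and 0, so no difference is read from it. The Myd88 call was lost without the second B_cell input library, at -1.62 (limma adjusted p = 0.0797). Neutrophil and Monocyte differed in none of the 10 (limma, unadjusted p under 0.05 in 0), where 0.543% of all genes did.

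Mettl3 RNA itself does not separate the labelled genotypes: its deposited input values were 274 to 931 in the 14 knockout libraries and 127 to 5370 in the 14 wild-type libraries. The libraries are therefore called labelled knockout and labelled wild type. Averaged over 7 types, 2 of the 7 genes with enough signal were higher in the labelled knockout, Tlr2 and Myd88, where 7.24% of all 15030 genes were higher and 2.89% lower. Tlr8, Tlr9 and Tlr13 never reached 10 deposited units in 2 libraries and were not tested.

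Myd88 ranged from 364 to 1400 (median 949) in 14 labelled wild-type libraries and from 714 to 2980 (median 1470) in 14 labelled knockout libraries. Its means were 947 ± 331 and 1600 ± 640 (SD, n = 14 libraries each, over 7 types). The mean was higher in the labelled knockout in 7 of 7 types, and both knockout libraries lay above both wild-type libraries in 2 of them, LT.HSC (1060 and 2240 against 364 and 730) and MkP (1420 and 1810 against 1340 and 515). The log2 difference was 0.75 (SE 0.23, limma adjusted p = 0.0429). Tlr2 had 76.9 ± 53.0 in labelled wild type and 149 ± 90.6 in labelled knockout (SD, n = 14 each), and was higher in the mean of 6 of 7 types. Both knockout libraries lay above both wild-type libraries in GMP (182 and 375 against 89.0 and 99.2), MEP (46.8 and 55.6 against 2.77 and 5.27) and MkP (176 and 235 against 125 and 0). Its log2 difference was 1.61 (SE 0.51, limma adjusted p = 0.0473).

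**Figure D4:**
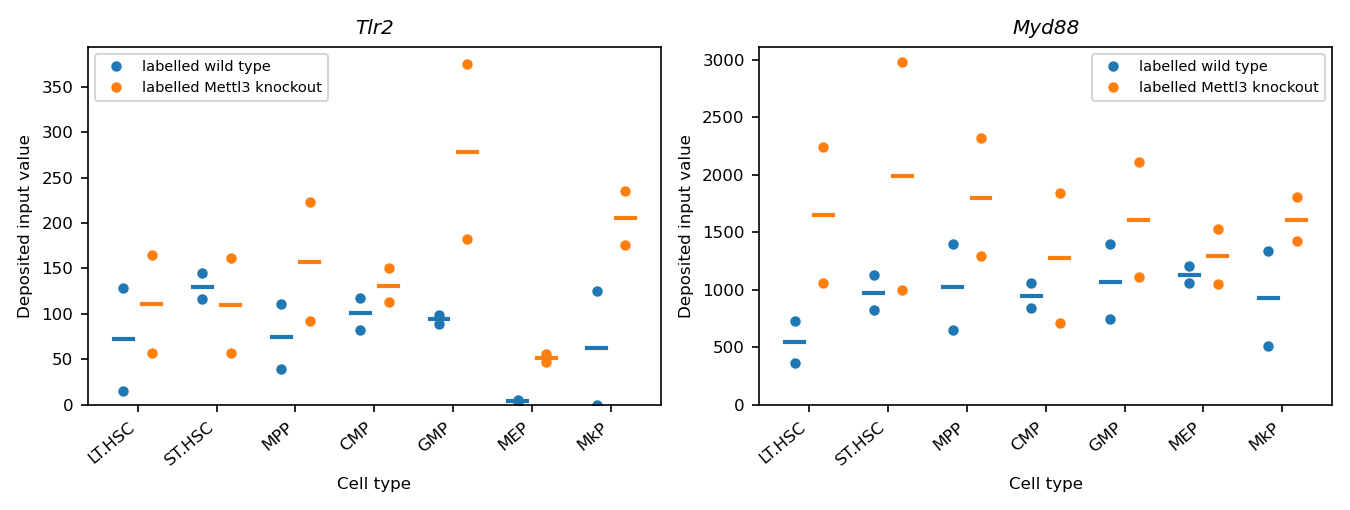
Deposited input values of Tlr2 and Myd88 in labelled Mettl3 wild-type (blue) and knockout (orange) libraries of 7 cell types, with 1 point per library and a bar at the mean of 2. Points of the genotypes overlap in most types, and the Myd88 bars are higher in the labelled knockout in 7 of 7.

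Of 34 alternatives, the Tlr2 call was lost in 27 and the Myd88 call in 21, while the difference stayed between 1.11 and 2.11 for Tlr2 and between 0.64 and 0.86 for Myd88 when single libraries were left out. In no single type did any of the 7 genes pass (limma, with an unadjusted p under 0.05 for 1 gene in LT.HSC, ST.HSC and MkP each, 2 in MPP and MEP each and 0 in CMP and GMP), where 0.539% of all genes passed in LT.HSC, 0.0133% in ST.HSC and in MPP, 0.00665% in CMP, 0.0% in GMP, 2.14% in MEP and 0.113% in MkP. The test of whether the genotype difference varied between types called none of them (limma F test, 0 with an unadjusted p under 0.05, 0.0133% of all genes called). Markers of mature cells were summed in the same libraries. A list of 9 neutrophil genes summed to a median of 193 CPM (8.17 to 3590) in the labelled knockout and 43.5 (3.68 to 939) in the labelled wild type, with all 9 detected, and a list of 8 monocyte genes to 853 (100.0 to 2580) and 690 (19.3 to 1880). A list of 8 macrophage genes had a median of 17.8 CPM (3.1 to 1000) and 28 (1.64 to 87.5), a list of 5 genes of granulocyte monocyte progenitors 7090 and 3890, and 5 genes of mast cells and basophils 181 and 71.7. Their part in the Tlr2 and Myd88 values was not tested. Cd14, Tlr1, Tlr4, Tlr6 and Tlr7 did not pass, and for Cd14 both genotypes spread widely (4.21 to 507 in labelled wild type, 0 to 247 in labelled knockout). Of 46 further pathway genes 4 were higher and none lower, where 7.24% and 2.89% of all genes were, among them Lbp (1.34, SE 0.23), the kinase-like brake Irak3 (0.76, SE 0.24) and Sigirr (0.62, SE 0.15).

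Enrichment in the Mettl3 set did not differ by genotype in any of the 7 genes tested (limma, 1 with an unadjusted p under 0.05), as in 0.0% of 14575 genes. Myd88 was below 0 in 14 of 14 labelled wild-type pairs (median -2.08, from -3.45 to -0.40) and in 14 of 14 labelled knockout pairs (median -3.11, from -6.0 to -1.97). Cd14 was below 0 in 13 and 10 of 14. The Myd88 value of -0.40 came from the first labelled wild-type LT.HSC pair, whose IP library had 94.2% of its reads in 10 genes. In the first labelled wild-type ST.HSC IP library 10 genes took 75.8%. The first labelled knockout MEP IP library held only 0.819 M reads. These 3 IP libraries are the ones called doubtful below.

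In LT.HSC labelled Igf2bp2 -/- and wild type, 4 of the 10 genes had enough reads to be tested. None passed in edgeR's quasi-likelihood test or had an unadjusted p under 0.05 there, where 0.0% of all 12221 genes passed. DESeq2 called none of the 10 genes either, while it called 94 of all 11747 genes it tested. Myd88 had 92 and 277 reads (19.7 and 42.7 CPM) in the knockout and 1142 and 356 (57.1 and 72.4 CPM) in the wild type. The groups did not overlap. The first wild-type library held 20.0 M reads and the others 4.68 to 6.49 M, so bare reads cannot be compared between libraries. Tlr4 had 42 and 1 reads (8.97 and 0.154 CPM) against 196 and 9 (9.81 and 1.83 CPM). Tlr2 had 0 and 1 reads against 0 and 56, and single libraries decided both genes. Tlr1 had 3 and 8 reads (0.641 and 1.23 CPM) in the knockout against 49 and 9 (2.45 and 1.83 CPM) in the wild type. Tlr6 had 37 and 0 reads (7.9 and 0 CPM) against 62 and 9 (3.1 and 1.83 CPM). Tlr13 had 0 and 1 reads against 13 and 2, and Cd14 0 and 1 against 1 and 0. Tlr7, Tlr8 and Tlr9 had no read in the 4 libraries.

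New RNA is given as the T-to-C ratio after 3 h of 4sU, in percent, for 9 of the 10 genes, since Myd88 is not listed in that table. No gene of the 7 tested passed between the 6 types (limma F test, 5 with an unadjusted p under 0.05), as 0.0% of 13909 genes did. Tlr8 came nearest, with a limma adjusted p of 0.0537. Its ratio was 8.88% and 6.07% in MPP and 5.06% and 2.70% in CMP, at most 0.0569% in LT.HSC, ST.HSC and MEP, and 0 in both GMP libraries. Input of Tlr8 was near 0 in these types of the atlas, so few molecules stand behind the ratio.

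Tlr2 had 0.555% and 1.23% in LT.HSC, 1.00% and 2.09% in ST.HSC, 4.53% and 6.40% in MPP, 1.79% and 4.64% in CMP, 14.4% and 1.82% in GMP and 8.69% and 13.6% in MEP. The GMP libraries disagreed. Tlr4 was 1.10% and 0.196% in LT.HSC, 4.34% and 3.79% in MPP and 6.42% and 0.713% in GMP. Cd14 was 1.56% and 0 in LT.HSC, 3.00% and 4.79% in MPP, 3.61% and 4.38% in CMP and 0 in both MEP libraries. The median over genes above 0 was 0.92% and 0.649% in LT.HSC, 1.59% and 1.77% in MPP and 1.22% and 0.40% in GMP, so the second GMP library was low over genes as a whole. Tlr7 was 3.06% and 1.74% in ST.HSC, 1.47% and 1.49% in MPP and 0 and 13% in GMP. Tlr1, Tlr6, Tlr9 and Tlr13 were above 0 in 6, 4, 2 and 6 of 12 libraries. Between progenitors and stem cells none of the 7 genes passed (limma, 2 with an unadjusted p under 0.05), where 0.0288% of all genes did.

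**Figure D5:**
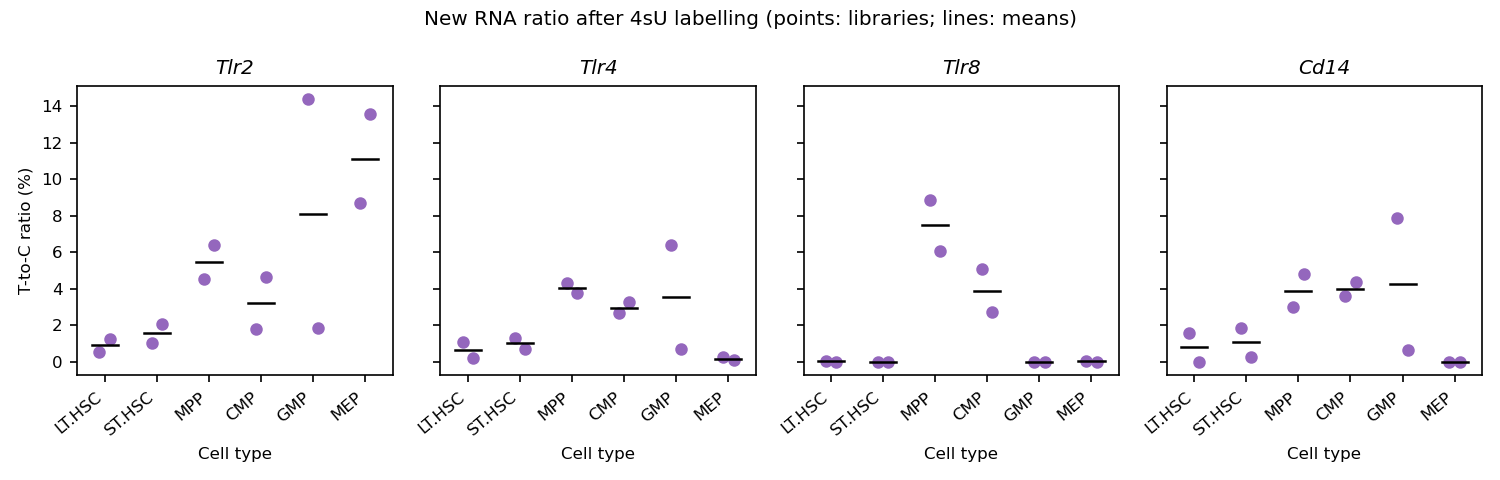
T-to-C ratio in percent after 3 h of 4sU for Tlr2, Tlr4, Tlr8 and Cd14 in 6 cell types, with 1 point per library and a line at the mean of 2. MPP points lie above both stem cell types for the 4 genes drawn, and the GMP points of Tlr2 are 14.4% and 1.82%. The median over genes above 0 was also higher in MPP (1.59% and 1.77%) than in LT.HSC (0.92% and 0.649%) and ST.HSC (0.855% and 0.905%). Tlr7, not drawn, was lower in MPP (1.47% and 1.49%) than in ST.HSC (3.06% and 1.74%).

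Chase ratios were deposited as averages with no replicate values, so no error can be given. In MkP the Cd14 average was 0.111% after 0.5 h, 0.0896% after 1 h, 0.051% after 3 h and 0.0102% after 6 h, then 0.0148% after 9 h, 0.0708% after 12 h and 0.0142% after 24 h. The median over genes with a value was 0.0697%, 0.0526%, 0.0446%, 0.0165%, 0.0157%, 0.0282% and 0.0158% at these times, so the 12 h value stood above its neighbours for Cd14 and for the median. Tlr2 in MkP was 0.00951% after 0.5 h, 0.229% after 1 h and 0.0119% after 3 h, with no steady fall. Tlr6 (0.0363%, 0.0298%, 0.0255% and 0.00589%) and Tlr7 (0.0486%, 0.0268%, 0.0152% and 0.0123%) were lower at each listed time, 0.5, 1, 3 and 24 h, than at the one before. Tlr4 was 0.00769%, 0.0769%, 0.0408% and 0.00964% at the same times. Tlr1 was 0.0524% after 0.5 h, 0.0122% after 1 h and 0.0397% after 24 h. Tlr13 was 0.0574% after 0.5 h and 0.00162% after 1 h, then 0.0107% after 6 h, 0.0134% after 9 h and 0.0135% after 24 h. None of these 3 fell steadily. In LT.HSC the table gave 1 or 2 values for Tlr1, Tlr2, Tlr7 and Cd14 and 3 for Tlr4, too few for a decay curve. Tlr2 there was 0.929% after 1 h, beside a median of 0.161%, and 0.0207% after 6 h, beside 0.0232%.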

How the data were processed

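The atlas, Mettl3, Igf2bp2 and 4sU tables of mouse blood cell types were used as deposited. Per the submitters' processing notes, the tools were kallisto, fastp and Trimmomatic and the build GRCm38, with no roles stated. The authors deposited counts for the atlas IP and Igf2bp2 libraries and estimated counts for the Mettl3 IP libraries, which were rounded. Input values were deposited as signal: each is a read count over a factor of its library, and 100% of them were whole multiples of 1 read (tolerance 0.1). T-to-C ratios were deposited as a fraction and are printed as percent; their depth is unknown. Depth was 8.23 to 21.5 M reads in atlas inputs, 10.8 to 24.6 in atlas IP, 3.42 to 20.2 in Mettl3 inputs, 0.819 to 22.9 in Mettl3 IP and 4.68 to 20.0 in Igf2bp2 libraries. Intervals and floors cover counting error only.

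Inputs were tested with limma 3.58.1 (R 4.3.3) on log2(value + 1), with trend and, in the atlas, robust moderation, for genes at 10 or more in at least 2 libraries. All groups of a table shared the spread. Such fold changes understate those of low genes. Enrichment was tested in 1 limma fit over IP and input as CPM after TMM factors, which differ from plain CPM. New RNA was tested on log2(percent + 0.1), keeping genes seen in 6 or more libraries. Igf2bp2 counts were tested with edgeR 4.0.16 (quasi-likelihood, filterByExpr) and DESeq2 1.42.0. Adjusted p-values are Benjamini-Hochberg values over all genes tested, called under 0.05. edgeR on the recovered reads called 15760 genes between the 16 types, 8991 between mature myeloid and early types, and 1497 for the Mettl3 mean. The tests were checked on simulated counts. Same-numbered deviations correlated above 0.1 in 27 of 120 atlas input pairs of types and in 2 of 7 Mettl3 pairs of genotypes. They did so in 5 of 16 atlas pairs of IP and input. By the rule used, replicate numbers did not pair these samples. Between IP and input of the same Mettl3 group, however, 10 of 14 pairs correlated above 0.1 (median r 0.221). The main Mettl3 enrichment fit took no account of that pairing, and with the replicate block it called 0 genes as well.

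The rule was to name the 10 genes in every table that lists them; pathway genes are named as the 3 highest and 3 lowest past the threshold, and similar genes as those with the highest r. The members and lists were chosen with earlier results of these data known. The scaling to CPM, the fits without Monocyte, without CD8 and without 3 doubtful IP libraries, and the enrichment percentiles were added after the data were seen.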

Additional observations from a re-analysis of the deposited data

How the results depend on the processing

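Counts here are of the 10 genes past the threshold unless said otherwise. By edgeR on recovered reads the count for GMP against LT.HSC went from 1 to 0, for B_cell against T cells from 5 to 3, and for the Mettl3 mean from 2 to 1. With a pseudocount of 10 it went from 0 to 2 for Neutrophil against Monocyte (Tlr8 and Tlr13), and for enrichment from 5 to 8 between the 16 types (with Tlr6 lost), from 2 to 6 between mature myeloid and early types and from 2 to 5 for DC against B_cell. Over all genes the first of these counts went from 3656 to 3696. The 3 enrichment counts over all genes went from 5519 to 7379, from 1174 to 2297 and from 859 to 1664. CPM gave 6 for Neutrophil against Monocyte. For the Mettl3 mean the count was 0 with no filter on low values, 1 with TMM scaling (Myd88), 1 with the replicate block (Tlr2) and 0 with 1 mean per genotype and replicate number. That last fit called 1 of all 15030 genes, so it could hardly call a member. In CMP alone the count was 1 with no filter, where 14 of all 26503 genes passed. The replicate block changed no other count by over 1.5 times. For new RNA between the 6 types the count was 1 (Tlr8) with a pseudocount of 1, where 12 of 13909 genes passed. It was also 1 (Tlr8) with genes above 0 in at least 1 library, where 69 of 17824 passed. Directions turned for Tlr7 in mature myeloid against early types in CPM (-0.046), and for Neutrophil against Monocyte for Cd14 with TMM scaling (0.122), edgeR (0.233) and CPM (2.15) and for Myd88 by edgeR (0.002) and in CPM (1.97). Leaving out single libraries, Myd88 there ranged from -0.609 (without the first Monocyte library) to 0.069 (without the second), and counts ranged from 0 to 2 for GMP against LT.HSC, 3 (without the second MEP library) to 4 for GMP against MEP, 2 (without the second B_cell library) to 5 for B_cell against T cells, 4 to 7 for enrichment between types, 2 to 4 (without the second LT.HSC IP library) for enrichment in mature myeloid against early types, 0 to 2 for enrichment in DC against B_cell, 0 to 2 for the Mettl3 mean, 0 to 1 in ST.HSC and in MkP, 0 to 1 for new RNA between types and 0 to 2 (without the second GMP library) for progenitors against stem cells. The cause was not tested. With 2 libraries per group and at most 52 reads of Tlr4 and 58 of Tlr8 in a library, small differences were not detectable at this depth.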

Other observations

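Other receptor genes of the family had patterns of their own in the atlas inputs, given as deposited values of 2 libraries. Tlr3, the receptor of double-stranded RNA, was highest in CLP (461 and 586), with 65.7 and 482 in B_cell, 111 and 121 in DC and 4.99 and 7.25 in Neutrophil. Tlr5 was found at 24.9 and 33.3 in Neutrophil, 23.9 and 11.6 in Monocyte and 10.0 and 9.29 in DC, and no library of the other 13 types exceeded 1.31. Tlr11 stood at 159 and 85.0 in DC and had no read in Neutrophil, Monocyte, B_cell, CD4 or CD8 libraries. Tlr12 was 148 and 76.2 in CLP, 136 and 116 in DC and 64.7 and 63.2 in CD4, and 0 in both Monocyte libraries. Cd180, a receptor-like protein of B cells, was 1320 and 3840 in B_cell, 1080 and 1040 in DC and 718 and 853 in CLP. CLP libraries thus held Tlr3 at its highest mean and Tlr7, Tlr9 and Tlr12 at their second highest, after DC. The same CLP libraries held a dendritic cell list at 15200 and 11700 CPM and a monocyte list at 25200 and 8810, whose part in these levels was not tested.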
